A study of Mus musculus with 6 samples.

Results

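Glycolysis breaks glucose down to pyruvate in the cytosol, and 30 genes of this pathway were followed in mammary epithelial cells (MECs) of *fat-1* and wildtype (WT) mice. They were the listed glucose transporters, enzymes and isozymes of each step, the enzymes that set fructose 2,6-bisphosphate, the lactate dehydrogenases and the lactate transporters. Members were found by gene symbol, and all 30 had a row among the 61880 rows and 53912 loci of the count table. The MECs came from inguinal mammary glands of female FVB/NJ mice aged 6 to 8 weeks, and each of the 3 *fat-1* and 3 WT samples was a pool of cells from several mice. The *fat-1* transgene encodes the n-3 desaturase of *Caenorhabditis elegans* and lets the whole body make n-3 polyunsaturated fatty acids from n-6 ones, so it is not specific to the mammary gland. Both genotypes received the modified AIN93G diet for life, with safflower oil at 10% of weight and 22% of energy. Lymph nodes were removed before the glands were digested, red cells were lysed, and the sources name no sort for epithelial cells.

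Each step of glycolysis is carried by an enzyme that often exists as several isozymes from separate genes. Hexokinase traps glucose in the cell, phosphofructokinase commits it to breakdown, and pyruvate kinase makes the last ATP. Lactate dehydrogenase converts pyruvate to lactate to regenerate NAD+, and monocarboxylate transporters carry the lactate out. In the mammary gland glucose is also the precursor of lactose, and *Slc2a1* (GLUT1) is the main glucose transporter of the mammary epithelium.

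Total counts were between 204539059 and 232148824 per sample. The table lists assembled loci, and reads of a gene can be in a row with its symbol or in another row of the same locus, so each member was measured as the sum of its locus and, separately, as the row with its symbol. These are the estimates of a transcript assembly and need not equal numbers of reads. Levels are in CPM, the counts scaled to a library total of 1000000 after TMM normalization, and values are given in the order of sample 1, 2 and 3 of each genotype. Epithelial keratins and *Epcam* were present in all samples, but the isolates differed within each genotype. The mean log2(CPM + 1) of 19 luminal and basal markers was 6.13, 4.46 and 5.45 in *fat-1* and 6.26, 5.47 and 4.51 in WT. The same mean of 9 immune markers was 4.64, 5.56 and 5.22 in *fat-1* and 4.68, 5.04 and 5.62 in WT. The samples therefore lay at 3 epithelial levels, each held by 1 *fat-1* and 1 WT sample, with *fat-1* sample 1 and WT sample 1 highest. In such bulk samples fewer cells of a type and less RNA per cell cannot be told apart.

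No glycolysis locus passed the test for a difference between the genotypes. Of the 30 member loci 29 passed the filter on low counts, and 0 of these 29 had an adjusted p at or under 0.05 by the edgeR quasi-likelihood test, as did 0 of all 24061 loci tested (0.00%). At an unadjusted p of 0.05 the count was also 0 of 29, where 1.14% of all loci tested were called. DESeq2 and the edgeR exact test also called 0 of the 29 after adjustment, where they called 8 (0.0332%) and 6 (0.0249%) of all 24061 loci. Log2 fold changes of *fat-1* relative to WT ran from -0.25 (*Slc2a4*) to 0.35 (*Pgam2*), the smallest unadjusted p was 0.153 (*Hk2*) and the adjusted p was 1 for every member. The median over the 29 loci was 0.06, with 22 above and 7 below 0, beside 0.00 over all loci tested. The median was 0.06 to 0.07 under the other scalings, and leaving out 1 sample moved it most for *fat-1* sample 1 (to 0.00), *fat-1* sample 2 (to 0.02) and WT sample 1 (to 0.14). The split was 17 above and 12 below 0 without *fat-1* sample 1 and 15 above and 14 below 0 without *fat-1* sample 2. For 28 of the 29 loci the estimate plus or minus 2 standard errors lay within 1 on the log2 scale, and *Slc2a4* was the exception. Summed over the member loci the level was 7228 ± 786 CPM in *fat-1* and 6889 ± 560 CPM in WT (SD, n = 3, exact permutation p = 0.6, 2-sided, where 0.1 is the smallest p that 3 against 3 samples allow).

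**Figure D1:**
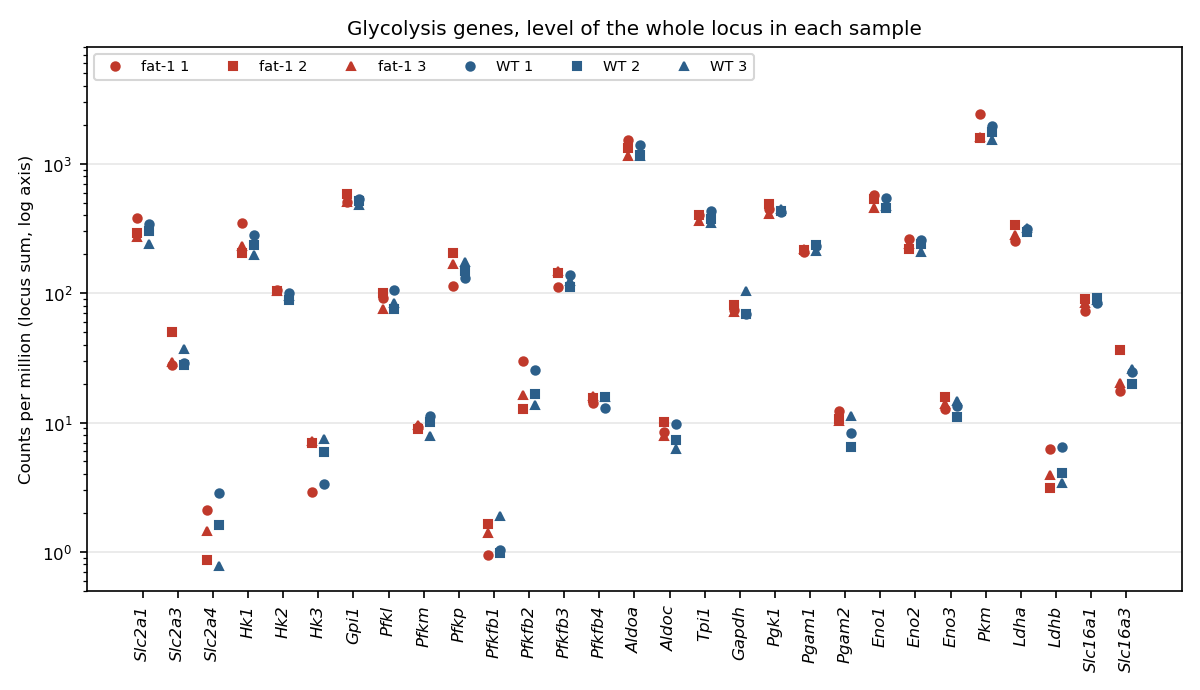
Level of each glycolysis locus in CPM (vertical log axis, sum of all rows of the locus) in each *fat-1* (red) and WT (blue) sample, with symbols for sample number. Levels span from under 1 CPM for *Slc2a4* to 2430 CPM for *Pkm*, and the genotypes overlap at every locus shown except *Hk2*.

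Sequences before the start sites are shown for 4 members, the glucose entry step, the first ATP-making step and the 2 lactate dehydrogenases, the latter because they serve the same reaction at 90.8 (*Ldha*) and 2.89 (*Ldhb*) CPM per kb of exon. They come from RefSeq (GRCm38.p6), run from 250 bases before to 50 bases after a start and were given for 28 of the 30 members. Capitals mark ACGTG or its reverse complement CACGT, the core of many hypoxia response elements and part of the CACGTG box that MYC and the ChREBP/MLX pair bind, and the 2 overlap where CACGTG occurs.
*Slc2a1* (chr4:119108495-119108794, + strand): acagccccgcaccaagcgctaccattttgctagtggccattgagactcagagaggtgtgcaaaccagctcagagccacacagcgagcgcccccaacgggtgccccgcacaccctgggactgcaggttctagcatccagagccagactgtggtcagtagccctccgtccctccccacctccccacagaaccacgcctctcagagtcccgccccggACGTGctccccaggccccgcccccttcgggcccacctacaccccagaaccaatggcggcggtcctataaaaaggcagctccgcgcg
*Pgk1* (chrX:106186850-106187149, + strand): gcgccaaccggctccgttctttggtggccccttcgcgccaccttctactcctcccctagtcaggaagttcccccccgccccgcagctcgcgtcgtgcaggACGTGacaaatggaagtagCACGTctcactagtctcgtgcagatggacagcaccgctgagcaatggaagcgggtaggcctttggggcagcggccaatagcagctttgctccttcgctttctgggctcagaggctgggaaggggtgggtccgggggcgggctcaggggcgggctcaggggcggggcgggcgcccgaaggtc
*Ldha* (chr7:46845554-46845853, + strand): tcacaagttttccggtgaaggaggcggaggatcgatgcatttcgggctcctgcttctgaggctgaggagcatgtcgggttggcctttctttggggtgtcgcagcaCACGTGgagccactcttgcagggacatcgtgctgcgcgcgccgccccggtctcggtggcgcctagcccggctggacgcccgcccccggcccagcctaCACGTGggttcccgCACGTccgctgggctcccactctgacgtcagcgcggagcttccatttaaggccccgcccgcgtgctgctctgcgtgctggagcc
*Ldhb* (chr6:142507908-142508207, - strand): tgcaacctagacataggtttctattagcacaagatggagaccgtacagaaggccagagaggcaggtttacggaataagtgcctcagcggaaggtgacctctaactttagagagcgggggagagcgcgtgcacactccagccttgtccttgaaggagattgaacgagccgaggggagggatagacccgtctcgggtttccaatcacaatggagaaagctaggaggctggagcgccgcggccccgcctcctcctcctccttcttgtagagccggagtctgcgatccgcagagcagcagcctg
The letters begin at 1 position in *Slc2a1*, at 2 in *Pgk1*, at 5 in this window of *Ldha* and at 0 in that of *Ldhb*. A second window of *Ldha* has 0. At least 1 window held them in 16 of the 28 members (57.1%), among them *Hk1*, *Hk2*, *Pkm*, *Slc16a1* and *Slc16a3*, and in 21.8% of all 27025 genes with a window. Counted by window the share was 43.5% for members and 19.6% for all. These matches describe the windows only, with no test.

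Among the glucose transporters GLUT1 led in every sample. The locus of *Slc2a1* (GRCm38, chr4:119108711-119137983, + strand) had 384, 292 and 271 CPM in *fat-1* and 341, 301 and 239.6 CPM in WT. Its log2 fold change was 0.10 ± 0.18 (SE). The highest values were in sample 1 of both genotypes and the groups overlapped. *Slc2a3* (GLUT3, a high-affinity transporter of neurons and leukocytes) had 27.9, 50.2 and 29.6 CPM in *fat-1* and 28.7, 27.9 and 37.0 CPM in WT. It was highest in *fat-1* sample 2 (log2 fold change 0.20 ± 0.26 (SE)). *Slc2a4* (GLUT4, the insulin-responsive transporter of muscle and fat) was near 1 CPM, with 2.10, 0.867 and 1.45 CPM in *fat-1* and 2.84, 1.62 and 0.773 CPM in WT. Here WT sample 1 was highest and WT sample 3 lowest (log2 fold change -0.25 ± 0.52 (SE)). Per kilobase of exon, *Slc2a1* made up 94.2% ± 2.02 of the summed level of these 3 transporters in *fat-1* and 94.4% ± 1.45 in WT (SD, n = 3, exact permutation p = 1).

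The hexokinases were represented mainly by *Hk1* and *Hk2*. *Hk1*, the isozyme of most tissues, had 351, 206 and 233 CPM in *fat-1* and 283, 234 and 197 CPM in WT. *Fat-1* sample 1 was the highest of all and WT sample 3 the lowest (log2 fold change 0.14 ± 0.23 (SE)). *Hk2* (chr6:82725025-82774454, - strand), the isozyme that insulin and hypoxia raise in many tissues, had 106, 103 and 103 CPM in *fat-1* and 101, 89.2 and 95.1 CPM in WT. All 3 *fat-1* samples lay above all 3 WT samples, by 104 ± 1.53 against 95.0 ± 5.74 CPM (SD, n = 3, exact permutation p = 0.1). Its log2 fold change was 0.13 ± 0.08 (SE), which did not pass the test. This was the only one of the 29 member loci tested whose groups did not overlap (3.45%), beside 4.15% of all loci tested. *Hk3*, which is found mainly in myeloid cells, had 2.90, 6.96 and 7.22 CPM in *fat-1* and 3.35, 5.95 and 7.50 CPM in WT. It was lowest in sample 1 of both genotypes, where the immune marker score was also lowest, and the part of those cells was not tested. The share of *Hk1* among the hexokinases was 61.1% ± 6.98 in *fat-1* and 61.3% ± 4.55 in WT per kilobase of exon (SD, n = 3, exact permutation p = 1). *Hk2* held 29.7% to 40.0% and *Hk3* 1.32% to 4.96% over the 6 samples.

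Glucose 6-phosphate isomerase, the next enzyme, is encoded by *Gpi1*. Its locus had 511, 586 and 505 CPM in *fat-1* and 536, 515 and 481 CPM in WT, and the log2 fold change was 0.06 ± 0.09 (SE). The row named *Gpi1* held only 13.7% of these counts and a row of the same locus without a symbol held the rest.

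The phosphofructokinase genes gave a different picture by locus and by row. The locus of *Pfkl* (chr10:77986947-78010083, - strand), the liver-type subunit, had 92.4, 100.03 and 75.5 CPM in *fat-1* and 106, 74.8 and 83.6 CPM in WT. The groups overlapped, and the log2 fold change was 0.02 ± 0.17 (SE). The row named *Pfkl* had 49.2, 44.9 and 49.7 CPM in *fat-1* and 57.2, 70.7 and 76.6 CPM in WT. On this row all *fat-1* samples were below all WT samples, with a log2 fold change of -0.51 ± 0.15 (SE), an unadjusted p of 0.0156 and an adjusted p of 1. The other row of the locus, which carries no symbol, had 9154, 11844 and 5350 counts in *fat-1* and 10515, 964 and 1418 counts in WT. The named row thus held 53.0%, 44.8% and 65.9% of the locus in *fat-1* and 53.8%, 94.3% and 91.8% in WT, so that the shares overlapped at sample 1 (exact permutation p = 0.2). The difference of the named row was lost in the sum of the 2 rows. Without *fat-1* sample 2 or without WT sample 2 its unadjusted p was 0.0527 or 0.0502.

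*Pfkp*, the platelet-type subunit, had 114, 204 and 168 CPM in *fat-1* and 131, 148 and 173 CPM in WT. It was lowest in sample 1 of both genotypes (log2 fold change 0.10 ± 0.22 (SE)). *Pfkm*, the muscle-type subunit, had 9.29, 8.88 and 9.54 CPM in *fat-1* and 11.2, 10.1 and 7.93 CPM in WT. Its groups overlapped (log2 fold change -0.08 ± 0.16 (SE)). Per kilobase of exon *Pfkl* made up 42.4% to 55.1% of the phosphofructokinase level, *Pfkp* 33.6% to 46.9% and *Pfkm* 8.10% to 12.0%. The order of *Pfkl* and *Pfkp* changed between samples, and neither share passed a test between genotypes (exact permutation p = 1 and 0.6).

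Fructose 2,6-bisphosphate is the strongest activator of phosphofructokinase and is made and removed by the 4 *Pfkfb* enzymes. *Pfkfb3*, the isozyme with the highest kinase activity, had 112, 144 and 149 CPM in *fat-1* and 137, 111 and 125 CPM in WT. It made up 67.2% to 78.2% of the family per kilobase of exon. *Pfkfb4* had 14.1, 15.5 and 15.9 CPM in *fat-1* and 12.9, 15.8 and 15.6 CPM in WT. These 2 loci overlapped between genotypes (log2 fold changes 0.12 ± 0.14 (SE) for *Pfkfb3* and 0.04 ± 0.13 (SE) for *Pfkfb4*). *Pfkfb2*, the heart-type isozyme, had 30.0, 12.6 and 16.2 CPM in *fat-1* and 25.5, 16.7 and 13.6 CPM in WT. It was highest in sample 1 of both genotypes, by 1.88 times the mean of the other 4 samples (log2 fold change 0.08 ± 0.38 (SE)). *Pfkfb1*, the liver-type isozyme, had 0.948, 1.64 and 1.41 CPM in *fat-1* and 1.03, 0.976 and 1.89 CPM in WT (log2 fold change 0.04 ± 0.34 (SE)).

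**Figure D2:**
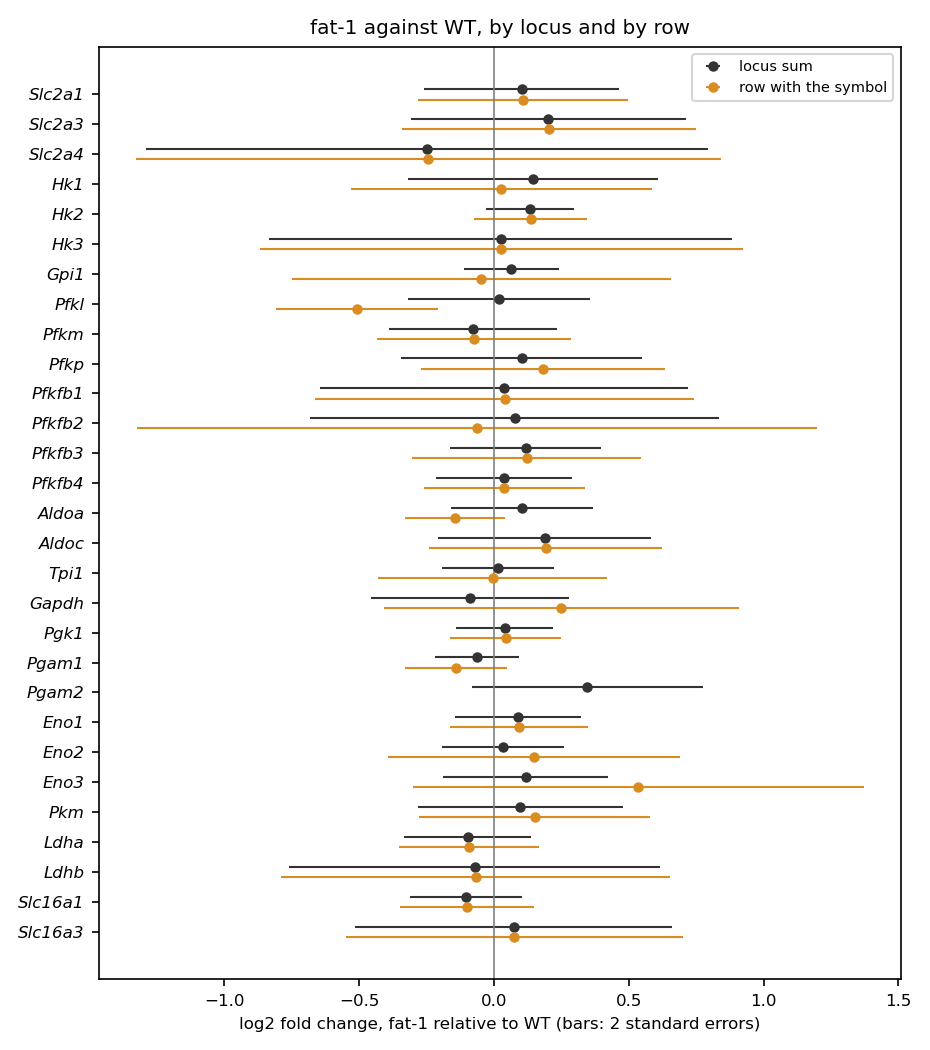
Log2 fold change of *fat-1* relative to WT (horizontal axis, bars of 2 standard errors) for each locus sum (black) and each row with the symbol (orange). The locus estimates all have bars that cross 0, and the row of *Pfkl* at -0.51 is the one row whose bar does not.

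Below phosphofructokinase most steps were carried by 1 strongly expressed gene. *Aldoa*, the main aldolase, had 1530, 1319 and 1151 CPM in *fat-1* and 1407, 1167 and 1150 CPM in WT by locus. This locus also holds the neighbouring gene *Ppp4c*, with 1.86% of its counts (log2 fold change 0.10 ± 0.13 (SE)). *Aldoc*, the aldolase typical of brain, had 8.51, 10.1 and 7.93 CPM in *fat-1* and 9.69, 7.35 and 6.29 CPM in WT (log2 fold change 0.19 ± 0.20 (SE)). Triosephosphate isomerase, *Tpi1*, had 404, 402 and 361 CPM in *fat-1* and 432, 371 and 351 CPM in WT. Its locus includes *Usp5* with 10.7% of the counts, and the log2 fold change was 0.01 ± 0.10 (SE). Phosphoglycerate kinase, *Pgk1* (chrX:106187100-106203699, + strand), which makes the first ATP of the pathway, had 448, 493 and 406 CPM in *fat-1* and 427, 433 and 451 CPM in WT. The groups overlapped (log2 fold change 0.04 ± 0.09 (SE)).

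Phosphoglycerate mutase was mostly *Pgam1*, which had 209.6, 216 and 221 CPM in *fat-1* and 229.6, 236 and 210.0 CPM in WT. It varied least of the 29 tested loci, with a ratio of 1.12 between the highest and lowest sample (log2 fold change -0.06 ± 0.08 (SE)). The locus of *Pgam2*, the muscle isozyme, had 12.2, 10.6 and 10.3 CPM in *fat-1* and 8.32, 6.52 and 11.2 CPM in WT. WT samples 1 and 2 were the lowest and WT sample 3 lay among the *fat-1* samples (log2 fold change 0.35 ± 0.21 (SE)). Without WT sample 3 the log2 fold change of the *Pgam2* locus was 0.58, with an unadjusted p of 0.0178. The row named *Pgam2* held 49, 0 and 0 counts in *fat-1* and 0, 27 and 0 counts in WT, which is 0.61% of the locus. The other 99.39% lay in a row without a symbol, so it is uncertain whether the locus sum is a level of *Pgam2*. The skeletal muscle markers summed to between 4.85 and 5.79 CPM, with *Myh1* and *Myh4* at or near 0 counts.

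Enolase was mostly *Eno1*, which had 572, 536 and 454 CPM in *fat-1* and 544, 457 and 468 CPM in WT (log2 fold change 0.09 ± 0.12 (SE)). The row of *Eno2*, the neuronal isozyme, had 2.65, 4.63 and 4.25 CPM in *fat-1* and 2.79, 3.91 and 3.71 CPM in WT. Its locus had 262, 220.4 and 240.3 CPM in *fat-1* and 258, 242 and 207 CPM in WT, but this sum is not a level of *Eno2*. Of its counts 1.53% were in the row named *Eno2*, 19.2% in *Atn1*, 2.33% in *Grcc10* and 76.7% in a row without a symbol (log2 fold change of the row 0.15 ± 0.27 (SE) and of the locus 0.03 ± 0.11 (SE)). *Eno3*, the muscle isozyme, had 12.7, 15.8 and 14.0 CPM in *fat-1* and 13.5, 11.1 and 14.6 CPM in WT by locus (log2 fold change 0.12 ± 0.15 (SE)). By named row *Eno1* made up 96.8% of the enolase level per kilobase of exon.

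Pyruvate kinase was *Pkm*, the most abundant member in CPM, with 2430, 1596 and 1604 CPM in *fat-1* and 1958, 1777 and 1528 CPM in WT. *Fat-1* sample 1 stood above the others and the other 2 *fat-1* samples lay within the range of the WT samples (log2 fold change 0.10 ± 0.19 (SE)). The rows do not separate its M1 and M2 splice forms. *Pklr*, the liver and red cell isozyme, did not pass the filter. It was listed at 5, 4 and 5 counts in *fat-1* and 0, 0 and 0 in WT. With WT set at a floor of 3 counts over its 3 samples the ratio would be 4.77. That floor covers counting error in WT only and takes the *fat-1* counts as exact, so the ratio is not a lower bound. The counts are also estimates of an assembly, and 14 estimated counts over 3 samples do not give a reliable level.

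The conversion of pyruvate was dominated by *Ldha*, which encodes the subunit that favours lactate formation. *Ldha* (chr7:46841475-46855627, + strand) had 253, 336 and 282 CPM in *fat-1* and 316, 295 and 322 CPM in WT. *Fat-1* samples 1 and 3 were the lowest and *fat-1* sample 2 the highest (log2 fold change -0.10 ± 0.12 (SE)). *Ldhb* (chr6:142490249-142507957, - strand), whose subunit favours the reverse reaction, had 6.24, 3.09 and 3.93 CPM in *fat-1* and 6.44, 4.08 and 3.42 CPM in WT. Sample 1 was highest in both genotypes (log2 fold change -0.07 ± 0.34 (SE)). Per kilobase of exon *Ldha* made up 96.8% ± 1.55 of this pair in *fat-1* and 97.0% ± 0.98 in WT (SD, n = 3, exact permutation p = 0.9).

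Of the lactate transporters *Slc16a1* (MCT1) had 72.9, 89.4 and 83.6 CPM in *fat-1* and 84.4, 92.0 and 87.8 CPM in WT (log2 fold change -0.10 ± 0.10 (SE)). *Slc16a3* (MCT4, the exporter of highly glycolytic cells) had 17.4, 36.7 and 20.2 CPM in *fat-1* and 24.7, 20.0 and 25.9 CPM in WT. *Fat-1* sample 2 was highest here, as it was for *Slc2a3* (log2 fold change 0.07 ± 0.29 (SE)). The neutrophil markers also summed highest in that sample, at 45.8 CPM against 18.5 to 32.0 CPM in the others, and their part in these values was not tested. *Slc16a1* made up 80.4% ± 5.08 of the pair per kilobase in *fat-1* and 81.8% ± 2.49 in WT (SD, n = 3, exact permutation p = 0.8).

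**Figure D3:**
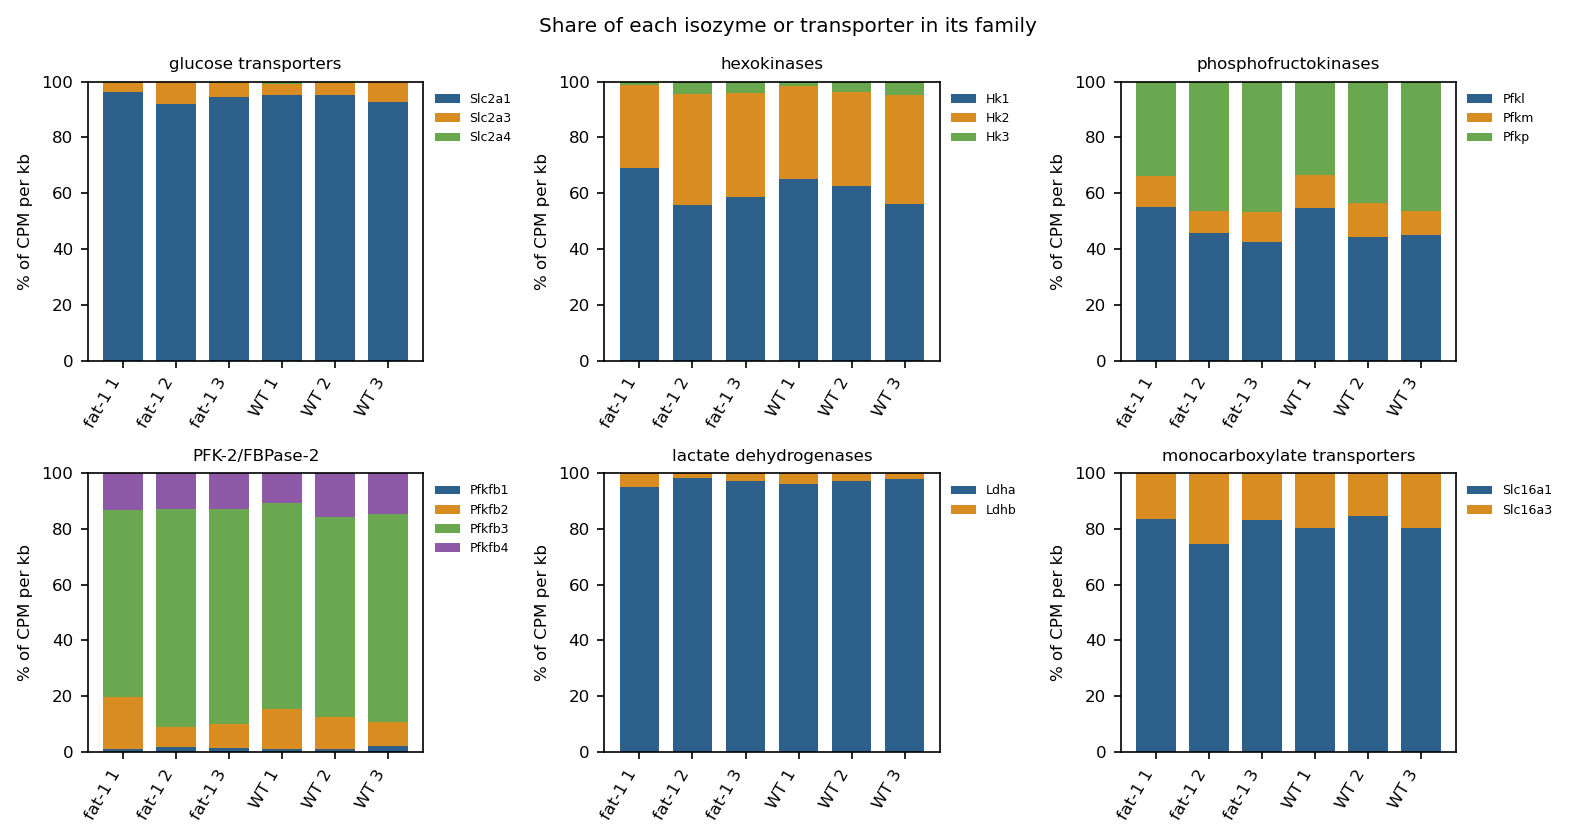
Share of each isozyme or transporter in the summed level of its family (percent of CPM per kilobase of exon, locus sums) in each sample. *Slc2a1* holds 92.1% to 96.1%, *Ldha* 95.1% to 98.1% and *Slc16a1* 74.6% to 84.7% in all samples, whereas *Hk1* ranges from 55.7% to 69.0% and *Pfkp* from 33.6% to 46.9% within both genotypes.

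The share of *Pkm* among the pyruvate kinases was 100% in every sample when rounded, and it separated the genotypes only through the few counts of *Pklr* (exact permutation p = 0.1). No other isozyme among the loci tested had shares that separated the genotypes, and the lowest exact permutation p for these was 0.3, for *Pgam1* and *Pgam2*. Ordered by level per kilobase of exon over all samples, *Aldoa* (442 CPM per kb) and *Pkm* (363) were followed by *Pgk1* (198), *Tpi1* (141) and *Pgam1* (111). *Eno1* (93.9), *Ldha* (90.8) and *Slc2a1* (87.0) came next, and their sample ranges overlapped. This order depends on the length used, since per kilobase of the longest transcript *Eno1* (249) was ahead of *Pgk1* (243) and *Tpi1* (241), and *Ldha* (166) and *Gpi1* (164) were ahead of *Pgam1* (124). The order also takes *Gapdh* by its locus alone, at 18.95 CPM per kb of exon. Together with the rows of its pseudogenes, given below, *Gapdh* had 397 CPM per kilobase of the longest transcript. That transcript has 3289 bases, and the highest copies, which hold many of these counts, span fewer. The value is therefore low for the counts of the copies and does not place *Gapdh* in the order.

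The members varied between samples, and the ratio of the highest to the lowest sample was taken over both genotypes together. Its median was 1.43 over the 29 loci, and the ratio was over 1.5 at 14 of them. It was 3.67 for *Slc2a4*, 2.59 for *Hk3*, 2.37 for *Pfkfb2*, 2.11 for *Slc16a3* and 2.08 for *Ldhb*, and 1.19 for *Hk2*. At 10 of the 29 loci *fat-1* sample 1 and WT sample 1, which had the most epithelial marker RNA, were both above the other 4 samples, where 20.3% of all loci tested had this pattern. These were *Slc2a1*, *Slc2a4*, *Hk1*, *Pfkfb2*, *Aldoa*, *Tpi1*, *Eno1*, *Pkm*, *Ldhb* and the locus of *Eno2*. At 3 loci, *Hk3*, *Pfkp* and *Pfkfb4*, both were below the other 4 samples, beside 18.8% of all loci tested. The row named *Eno2* went the other way from its locus, which is not a level of *Eno2*, and was lowest in these 2 samples. By the row with the symbol *Aldoa*, *Tpi1* and *Pfkp* did not keep the pattern of their loci. These 2 samples also had the lowest immune and fibroblast marker scores. *Pfkfb2* was 1.88 times, *Ldhb* 1.75 times, *Hk1* 1.46 times, *Pkm* 1.35 times and *Slc2a1* 1.31 times as high in those 2 samples as in the other 4, *Hk3* 0.45 times and *Pfkp* 0.71 times. With the epithelial marker mean as a covariate 0 of 29 loci had an unadjusted p at or under 0.05, beside 2.23% of all loci tested, and the smallest was 0.12 (*Hk2*).

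Markers of other cells were counted too. All 9 immune markers and all 6 fibroblast markers were above 1 CPM in mean. The immune markers summed to 648 to 1414 CPM in *fat-1* and 645 to 1465 CPM in WT. The fibroblast markers summed to 1551 to 6065 CPM in *fat-1* and to 3332 to 5617 CPM in WT, lowest in sample 1 of each genotype. On the same scale the luminal markers summed to 797 to 3291 CPM in *fat-1* and 848 to 2778 CPM in WT. The basal markers summed to 165 to 624 CPM and 158 to 505 CPM. The fibroblast sum was above the luminal sum in every sample except *fat-1* sample 1. The immune sum was above it in *fat-1* sample 2 and WT sample 3. Such sums depend on the genes listed. Of 6 adipocyte markers 5 were under 1 CPM in mean, *Adipoq* and *Plin1* among them. The sixth, *Fabp4*, which endothelial cells and macrophages also make, had 93.6, 106 and 83.2 CPM in *fat-1* and 112, 126 and 112 CPM in WT (log2 fold change -0.31 ± 0.12 (SE), with an edgeR unadjusted p of 0.037 and an adjusted p of 1). The part of these cells in the member levels was not tested beyond the covariate above.

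**Figure D4:**
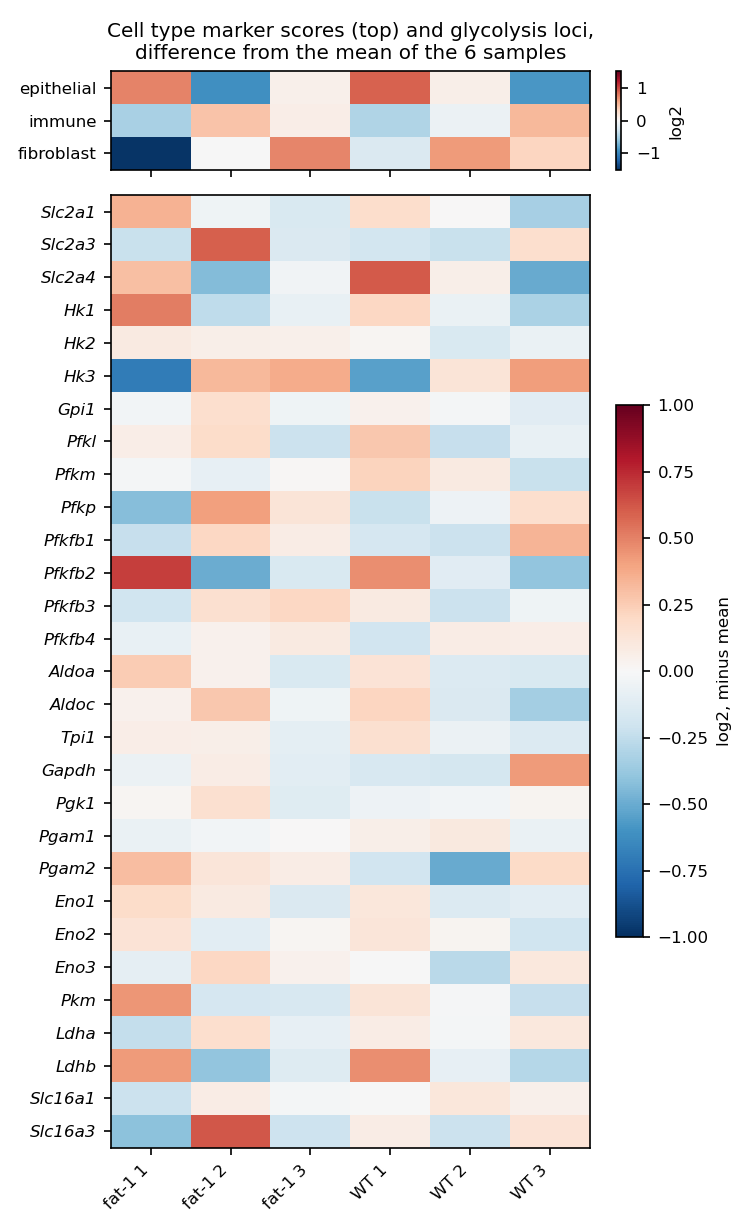
Log2(CPM + 1) of each glycolysis locus minus its mean over the 6 samples (lower panel, columns are samples) below the scores of the epithelial, immune and fibroblast markers (upper panel, same subtraction). *Hk1*, *Pfkfb2*, *Ldhb* and *Slc2a4* are red in sample 1 of both genotypes like the epithelial score, and *Hk3* and *Pfkp* are blue there. The immune and fibroblast scores are lowest in the same samples, so these scores cannot be told apart there.

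The patterns of 3 members were compared with the 9400 tested loci that carry a symbol and averaged over 10 CPM, by Pearson's r of log2(CPM + 1) over the 6 samples, as a description. *Slc2a1* was most like *Prdm10* (0.99), the locus of *Gfpt1* (0.99) and *Fxyd4* (0.99). *Hk2* was most like the locus of *Idua* and *Tmem175* (0.99), *Atp8a1* (0.98) and *Gne* (0.97). *Ldhb* was most like *Cdk19*, *Tox2* and *Pias3* (1.00 each). Over 6 points and this many loci, values of r this high can arise without any link between genes.

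When counted by the row with the symbol, 28 of the 30 members passed the filter. At an adjusted p of 0.05 the count by the quasi-likelihood test was 0 of 28, as it was 0 of all 30683 rows tested (0.00%). DESeq2 and the edgeR exact test also called 0 of the 28 after adjustment, where they called 93 and 32 of all 30683 rows. At an unadjusted p of 0.05 the quasi-likelihood test called 1 of 28 (3.57%), the row of *Pfkl*, where 2.21% of all rows were called. Groups did not overlap at 4 of 28 rows (14.3%), beside 5.26% of all rows tested. These were *Hk2*, higher in *fat-1*, and *Pfkl*, *Aldoa* and *Pgam1*, lower in *fat-1*. The row of *Aldoa* had 799, 687 and 808 CPM in *fat-1* and 828, 864 and 844 CPM in WT, and that of *Pgam1* had 191, 175 and 182 CPM in *fat-1* and 198, 196 and 210 CPM in WT. Neither passed the test (edgeR unadjusted p of 0.17 and 0.192), and in both the locus sums overlapped. Of the 30 loci 15 were a single row and 15 held several. In *Aldoa* 35.6% of the counts were in a row without a symbol, in *Pfkp* 47.6%, in *Pfkfb3* 54.7%, in *Pfkfb2* 52.7%, in *Tpi1* 51.5%, in *Eno3* 69.9%, in *Pkm* 17.7%, in *Hk1* 16.7% and in *Pgam1* 13.0%. No member's row share separated the genotypes.

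*Gapdh*, often used as a reference gene, was the member whose counts were most dispersed. Its locus (chr6:125161715-125166467, - strand) had 74.2, 81.4 and 72.0 CPM in *fat-1* and 69.1, 68.6 and 105 CPM in WT, so that this enzyme of a step shared by all glucose carbon was listed below *Pfkp* in CPM. WT sample 3 was the highest of all (log2 fold change -0.09 ± 0.18 (SE)). Within the locus a row without a symbol held 15365 counts in WT sample 3 and 253 to 2403 counts in the other samples. Processed copies of the *Gapdh* mRNA are numerous in the mouse genome. Of 330 annotated pseudogenes whose best match among the members was *Gapdh*, at 80% identity or more over 50% or more of their length, 327 had a row. Together these rows had 1302, 1298 and 1174 CPM in *fat-1* and 1246, 1191 and 1150 CPM in WT, which was 91.7% to 94.8% of all counts of the gene and its copies. The highest were *Gm7336* (chr7:51746647-51747878), *Gm5559* (chr5:95861714-95862715) and *Gm2606* (chr15:12574889-12575890), at 99.8% to 99.9% identity, which held 29.7% of the pseudogene counts. Each of them had more CPM than the *Gapdh* locus in every sample, except *Gm2606* in WT sample 3. Copies this close share reads with the gene, so the level of *Gapdh* itself is uncertain, and how the counting split these reads was not tested. Gene and copies summed to 1334 ± 75.9 CPM in *fat-1* and 1277 ± 33.5 CPM in WT (SD, n = 3, exact permutation p = 0.4).

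Pseudogene rows of the other members held smaller shares. For *Pgam1* the pseudogene rows, nearly all *Pgam1-ps2*, held 9.83% of the summed counts, for *Eno1* they held 5.98% (*Gm4735*) and for *Pkm* 1.13% (mainly *Gm6560*). In *Pgk1* the share was 1.00% over all samples, and it ranged from 0.31% to 1.52% between samples. In *Ldha* it was 0.97% over all samples (0.92% to 1.05%), and in *Tpi1*, *Aldoa* and *Gpi1* it was lower. A retrogene of *Eno1*, *Eno1b*, had 45.6, 43.9 and 36.1 CPM in *fat-1* and 45.8, 37.5 and 38.4 CPM in WT. This was 8.16% of the level of the *Eno1* locus.

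**Figure D5:**
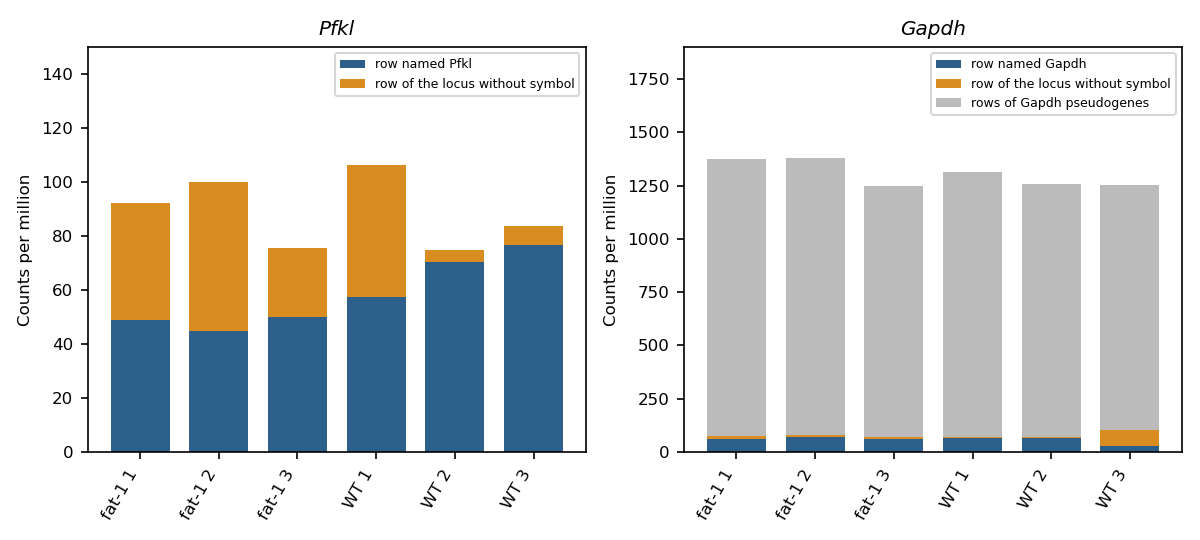
CPM in the rows that make up *Pfkl* (left) and *Gapdh* (right) in each sample, with the row that carries the symbol in blue, the row without a symbol in orange and, for *Gapdh*, the sum of 327 pseudogene rows in grey. The *Pfkl* sum overlaps between genotypes although its blue part is lower in all *fat-1* samples, and most of the *Gapdh* counts are grey.

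The other genes of the pathway were taken from 9 further lists with 86 tested loci. None passed the adjusted test, and at an unadjusted p of 0.05 1 locus of 86 was called, lower in *fat-1*, beside the 1.14% of all loci. *Ldhc*, the testis isozyme, had 6, 11 and 6 counts in *fat-1* and 12, 18 and 21 counts in WT, with a log2 fold change of -1.11 ± 0.42 (SE) and an edgeR unadjusted p of 0.0357. Its counts are near the limit of detection, and its adjusted p was 1. The unadjusted p was 0.0525 with DESeq2, 0.0566 with the replicate number as a block and 0.0842 to 0.121 without *fat-1* sample 1 or 3 or WT sample 2 or 3.

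Within these lists the transporters *Slc5a1* (9.32 CPM in mean) and *Slc2a6* (6.91) led the other sugar carriers, far below *Slc2a1*, and 0 of 9 tested loci had an unadjusted p at or under 0.05. Of the other isozymes *Adpgk*, an ADP-dependent sugar kinase (58.7 CPM), and *Pgam5*, a mitochondrial phosphatase (33.0), were the highest. *Bsg* (basigin, the chaperone of MCT1 and MCT4) had 230 CPM in mean and *Emb*, a related chaperone, 87.3 CPM, with log2 fold changes of -0.04 and -0.14. Gluconeogenesis was led by the mitochondrial *Pck2* (99.9 CPM) and *G6pc3* (24.5 CPM), whereas *Pck1*, *Fbp1* and *G6pc* were under 1 CPM. Among glycogen and galactose genes *Gaa*, the lysosomal glucosidase, had 198 CPM in mean, and the locus of *Pygm* had 423 CPM but also holds *Sf1*.

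The pentose phosphate pathway, which branches off after hexokinase, had *Pgd* at 907, 548 and 671 CPM in *fat-1* and 653, 724 and 577 CPM in WT. *Taldo1* had 652, 329 and 383 CPM in *fat-1* and 485, 436 and 363 CPM in WT. The 7 loci of this pathway had a median log2 fold change of 0.09 and 0 had an unadjusted p at or under 0.05. The shuttle enzymes *Mdh2* (134 CPM) and *Got2* (103 CPM) had log2 fold changes of -0.06 and 0.08. Of the regulators, *Txnip*, which glucose induces and which restrains its uptake, had 507, 288 and 338 CPM in *fat-1* and 575, 311 and 324 CPM in WT. The locus of *Arnt*, the partner of hypoxia-inducible factors, had 452 CPM in mean and also holds *Ctsk*. The hypoxia targets outside glycolysis were led by *Ndrg1* (304 CPM) and *Vegfa* (219 CPM), and 0 of 13 tested loci had an unadjusted p at or under 0.05.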

How the data were processed

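RNA of 3 pooled *fat-1* and 3 pooled WT samples was sequenced. The authors mapped reads to GRCm38 with HISAT2, assembled transcripts with StringTie and deposited a matrix of estimated counts, not normalized and given as whole numbers for each row. The StringTie version, the annotation and the use of strand are not given in the sources used here, so overlapping and near-identical genes are uncertain. Counts were summed per locus, and locus sums and rows were fitted separately with edgeR 4.0.16 (filterByExpr, TMM, quasi-likelihood test, Benjamini-Hochberg over all features tested). The fit was first run on simulated counts, where recovery of the changes was required only at a spread lower than that of these data. DESeq2 1.42.0, the exact test, other scalings, no filter, a replicate block, a marker covariate and leaving out each sample were alternatives. Isozyme and row shares were compared by 2-sided exact permutation tests. Exon lengths and positions were from GENCODE M21, and pseudogenes were matched with blastn. Every member is named, and of other lists the loci with p at or under 0.05 and the 2 highest. The members and lists were chosen with earlier results of these data known. The p-values weigh the difference between genotypes against the spread between the pooled samples, which may be partly technical. As each sample was a pool of several mice, this spread is not that between single mice. The 2 standard errors around an estimate describe how uncertain the difference between genotypes is, given the spread between samples. They are not a confidence interval of set coverage. The floor of 3 counts covers counting error in WT only. One gene of the other pathway lists is not reported here.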

Additional observations from a re-analysis of the deposited data

How the results depend on the processing

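After adjustment 0 member loci, 0 member rows and 0 other pathway loci passed under all 14 alternatives. At an unadjusted p of 0.05 the count of member loci went from 0 to 1 with no filter on low counts (*Pklr*, whose WT samples are all at 0), and between 0 and 1 when a sample was left out (*Pgam2* without WT sample 3). The count of member rows went from 1 to 0 with the exact test and to 2 with no filter, and between 0 and 2 when a sample was left out (*Pfkp* entered without *fat-1* sample 1, and *Pfkl* was lost without *fat-1* sample 2 or WT sample 2). The row of *Pfkl* kept a log2 fold change between -0.62 and -0.42 in all alternatives. Other pathway loci at an unadjusted p of 0.05 went from 1 to 0 with DESeq2, to 2 with the epithelial marker covariate, and to between 0 and 1 when a sample was left out (*Ldhc* was lost without *fat-1* sample 1 or 3 or WT sample 2 or 3, at unadjusted p of 0.117, 0.111, 0.0842 and 0.121). The fit with the replicate number as a block gave 0 such loci, 1 member row and 0 member loci. The deviations of same-numbered samples correlated at 0.80, -0.16 and 0.13 over loci, and WT sample 3 was closest to *fat-1* sample 2 (0.79). These values describe likeness of expression and cannot show whether same-numbered samples were handled together. The estimate changed sign under at least 1 alternative at 20 of 29 loci and 18 of 28 rows, none of which had an unadjusted p at or under 0.05.

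The mean share of *Slc2a1* was 89.4% by plain counts in place of 94.3% per kilobase. That of *Hk1* was 74.2% by the longest transcript and 69.9% by plain counts in place of 61.2%. That of *Pfkp* was 34.9% by named rows and 61.0% by plain counts in place of 41.8%, so its order with *Pfkl* depends on the length used. *Ldha* was 98.5% by plain counts in place of 96.9%. Member row shares whose groups did not overlap went from 0 to between 1 and 3 when a sample was left out. The cause was not tested in these cases other than by the change itself. With 3 samples a group, the standard errors of the 29 loci ranged up to 0.52 on the log2 scale, which limits what could be detected at the low loci.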
